A study of Mus musculus with 7 samples.

Results

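The core pluripotency factor genes are 10 mouse genes that encode transcription factors of the embryonic stem cell state, namely Pou5f1, Sox2, Nanog, Klf2, Klf4, Klf5, Esrrb, Tfcp2l1, Zfp42 and Tbx3. They were taken by name from the mm10 RefSeq table, with the gene body and 10 kb on each side as the window of each gene, and stand among 21631 protein-coding genes on the autosomes and X. Within these windows, sites where DNA replication starts (origins) were read from short nascent strand sequencing, in which DNA strands just begun at an origin are purified by size and by digestion with λ-exonuclease. Cells of 3 conditions were compared, with 2 libraries and 1 list of origins each. The untreated WT 1 library came from WT embryonic stem cells and had been submitted before. The untreated WT 2 library and all treated libraries came from TetO-CDC6 mESCs, a line derived from a mouse model in which doxycycline switches on the helicase-loading protein CDC6, so that WT 2 carries the uninduced transgene. APH 1 and APH 2 received 0.5 µM aphidicolin, an inhibitor of the replicative DNA polymerases, for 2.5 h, and CDC6 1 and CDC6 2 received 1 µg/ml doxycycline for 30 h. All cells grew without feeders on gelatin in serum with the cytokine LIF. DNA libraries carry no expression values, so neither the stem cell state nor the CDC6 induction was checked. The labels name no separate cultures, so spread between libraries may be technical.

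In mouse embryonic stem cells, Pou5f1 (OCT4), Sox2 and Nanog form a circuit whose products bind their own and each other's regulatory regions. Klf2, Klf4, Klf5, Esrrb, Tfcp2l1 and Tbx3 support self-renewal downstream of LIF and related signals, and Zfp42 (REX1) is a marker of the naive state. All are transcribed in these cells in general. Mammalian origins are licensed in excess, are often found near transcription start sites and CpG islands, and are used in different subsets from cell to cell.

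The 3 origin lists held 20178 (WT), 31653 (APH) and 31384 (CDC6) origins, and the 6 libraries held 71435 to 94747 MACS peaks. A MACS peak is a region enriched over 1 common control sample, and its fold is the authors' ratio over that control at the peak. The percentile of a peak is its rank by the authors' −log10 q-value among all peaks of its library, with 100 as the strongest. Folds and percentiles describe peaks within each library. Read numbers were not given, so the depth behind a peak is unknown. The peak names inside the WT 1 list carry the label of a second WT replicate, and the library is named here as its sample label has it. The cell line given for each WT library rests on that label too. Chromosome 8, which holds Klf2 and Zfp42, carried 8.26% of all peaks in WT 1, against 4.86% to 5.53% elsewhere.

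Most of the pluripotency genes had a listed origin. An origin lay in the window of 8 of the 10 genes in the WT list (53.6% of all protein-coding genes), of 7 in the APH list (60.2%) and of 9 in the CDC6 list (64.5%). All 3 lists held an origin at 7 genes (46.7% of all genes), which were Pou5f1, Klf2, Klf4, Klf5, Esrrb, Tfcp2l1 and Tbx3. Sox2 had origins in the WT and CDC6 lists, Zfp42 in the CDC6 list, and Nanog in none (28.3% of all genes had none). With 1 list per condition these counts have no replicate error. In single libraries, each of the 10 windows had a MACS peak in all 6 libraries (68.1% of all genes), Nanog included. The median window was 29.5 kb, against 37.3 kb for all genes.

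**Figure D1:**
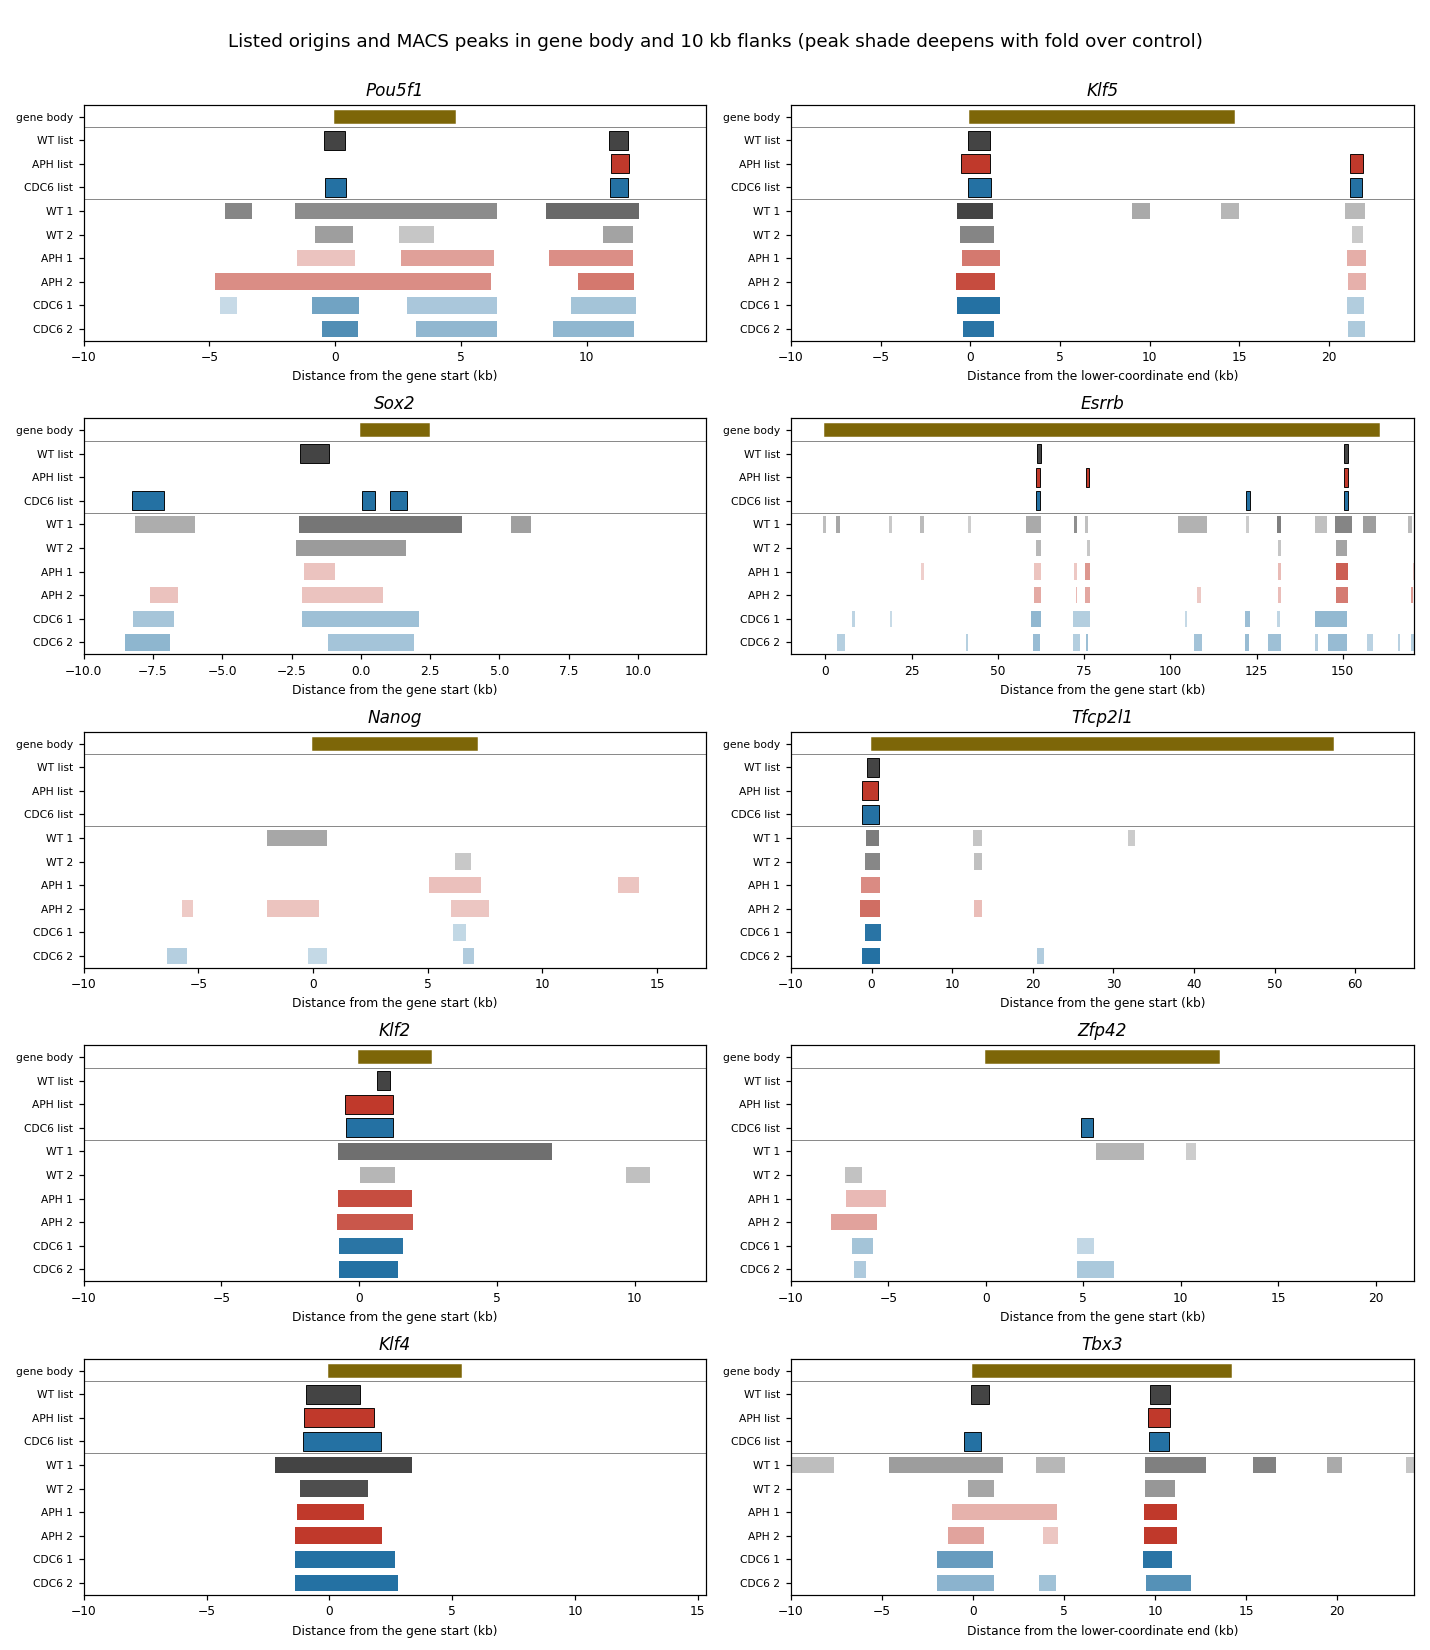
Origins of the 3 lists (outlined boxes) and MACS peaks of the 6 libraries (shaded boxes, deeper for a higher fold over the control) are drawn against distance in kb from the gene start (for Klf5 and Tbx3 from the lower-coordinate end) for the 10 pluripotency genes, with 10 kb on each side of the gene body. Klf4, Klf2 and Tfcp2l1 show a box within 1 kb of the start, and Klf5 at its lower-coordinate end, in all 3 lists, whereas the Nanog panel has no listed origin.

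Merged over the lists, the windows held 18 origin sites at 9 genes, with widths of 478 to 3215 bp. Of these sites, 8 were held by all 3 lists, 2 by WT and CDC6, 1 by APH and CDC6, 5 by CDC6 alone, 1 by APH alone and 1 by WT alone. Over all 46639 merged regions of the genome these classes made up 25.5%, 3.86%, 17.6%, 20.1%, 19.3% and 8.30%, in the same order. The CDC6 list held 16 of the 18 sites (67.1% of all regions), the WT list 11 (42.9%) and the APH list 10 (67.7%). All 8 sites of the 3 lists had a MACS peak in every library (99.8% of such regions in the genome). Of the 5 sites of the CDC6 list alone, 0 had a peak in every library (20.9% in the genome). Gene bodies overlapped 14 of the sites. A start of the gene itself, or for Klf5 and Tbx3 the gene end with the lower coordinate, lay within 1 kb of 8 sites, 1 at each of 8 genes.

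The start sites were set beside the promoter sequence, since the share of promoters with an origin was higher where CpG were many. The RefSeq promoter table (GRCm38.p6, which is mm10) held 8 of the 10 genes with 11 starts, but not Klf5 and Tbx3. Each entry spans 300 bases, 250 before and 50 after a start. Among 21045 promoters of protein-coding genes, those with 0 to 4 CpG had a WT origin within 1 kb in 2.89%, an APH origin in 4.28% and a CDC6 origin in 4.68%. Promoters with 26 to 67 CpG did so in 72.0%, 71.9% and 83.1%. Klf4, Klf2 and Sox2, with 40, 32 and 27 CpG, lay in this CpG-rich class. Tfcp2l1 had 21 CpG, Pou5f1 11 at its start nearest to the 5′ end, Zfp42 11, Esrrb 7 at each of 2 starts and Nanog 4 at each of 2 starts, against a median of 13. The 250 bases before the start are shown, 5′ to 3′ on the strand of the gene with each CpG in capitals, for genes that span this range and differ in the listed origins within 1 kb of the start, which stand beside each name.

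Klf4 (chr4:55532476-55532725, minus strand, origins of all 3 lists): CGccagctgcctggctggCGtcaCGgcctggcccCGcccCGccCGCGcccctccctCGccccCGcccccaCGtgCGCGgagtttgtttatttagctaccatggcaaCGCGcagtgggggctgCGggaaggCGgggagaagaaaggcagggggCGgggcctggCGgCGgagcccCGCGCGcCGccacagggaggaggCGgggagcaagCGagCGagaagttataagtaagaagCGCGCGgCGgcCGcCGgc
Sox2 (chr3:34649745-34649994, plus strand, CDC6 origin alone within 1 kb): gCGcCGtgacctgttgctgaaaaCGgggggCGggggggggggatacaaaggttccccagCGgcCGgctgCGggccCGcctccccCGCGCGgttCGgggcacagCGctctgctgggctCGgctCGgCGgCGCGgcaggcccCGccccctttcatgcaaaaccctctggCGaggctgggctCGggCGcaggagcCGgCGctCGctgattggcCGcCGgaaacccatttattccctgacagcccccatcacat
Pou5f1 (chr17:35505782-35506031, plus strand, origins of WT and CDC6): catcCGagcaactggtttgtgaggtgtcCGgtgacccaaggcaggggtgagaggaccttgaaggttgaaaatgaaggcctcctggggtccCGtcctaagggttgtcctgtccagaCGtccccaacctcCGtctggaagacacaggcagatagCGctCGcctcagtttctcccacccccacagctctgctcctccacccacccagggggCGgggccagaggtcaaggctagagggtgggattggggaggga
Esrrb inner start (chr12:86421394-86421643, plus strand, origins of all 3 lists): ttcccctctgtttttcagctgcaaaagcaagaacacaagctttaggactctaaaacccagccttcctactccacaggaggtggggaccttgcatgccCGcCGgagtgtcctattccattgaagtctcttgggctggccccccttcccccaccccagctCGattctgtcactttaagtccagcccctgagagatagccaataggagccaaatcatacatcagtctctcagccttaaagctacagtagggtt
Zfp42 (chr8:43307010-43307259, minus strand, no origin within 1 kb): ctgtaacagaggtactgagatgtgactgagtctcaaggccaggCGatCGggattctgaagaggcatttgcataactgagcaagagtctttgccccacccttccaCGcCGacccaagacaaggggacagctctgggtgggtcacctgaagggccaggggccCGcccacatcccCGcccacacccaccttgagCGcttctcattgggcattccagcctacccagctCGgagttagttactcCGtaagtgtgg
Nanog (chr6:122707239-122707488, plus strand, no origin within 1 kb): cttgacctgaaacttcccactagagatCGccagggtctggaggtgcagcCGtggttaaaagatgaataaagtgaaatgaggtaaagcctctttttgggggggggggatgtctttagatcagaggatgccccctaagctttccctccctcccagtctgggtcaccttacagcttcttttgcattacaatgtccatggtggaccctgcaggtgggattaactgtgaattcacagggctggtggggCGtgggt

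Klf4 has 32 CpG in the printed stretch, Sox2 27, Zfp42 9, Pou5f1 8, and the inner start of Esrrb and Nanog 3 each. Listed origins did not follow the number of CpG at every gene. The inner start of Esrrb had origins of all 3 lists with 7 CpG in the full window, where promoters with 5 to 13 CpG had a WT origin in 16.2%, an APH origin in 18.2% and a CDC6 origin in 23.2%. Sox2, with 27, had a CDC6 origin but neither a WT nor an APH origin within 1 kb of its start. For WT this rests on the 1 kb limit, because the WT list held an origin from -2.21 to -1.15 kb. All 6 libraries had a MACS peak within 1 kb of the Sox2 start. Its fold was 4.41 and 3.42 in WT, 2.27 and 2.26 in APH and, in CDC6, 2.94 and 2.80. The lack of a listed WT origin there thus does not show a weaker WT peak.

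A G-quadruplex motif was searched in the same 300-base windows on both strands, as 4 runs of GGG separated by 1 to 7 bases of any kind. It was found at Klf4, Sox2, Zfp42, both starts of Nanog and the start of Pou5f1 nearest to the 5′ end, and in 22.2% of all promoters. The letters TTTGCAT, the core of the octamer element that OCT4 recognises, were found on one strand or the other at Sox2, Zfp42 and both starts of Nanog, which share most of their window, and in 4.27% of all promoters. Overlap between the motifs was not counted, and a match is a description of the letters only.

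**Figure D2:**
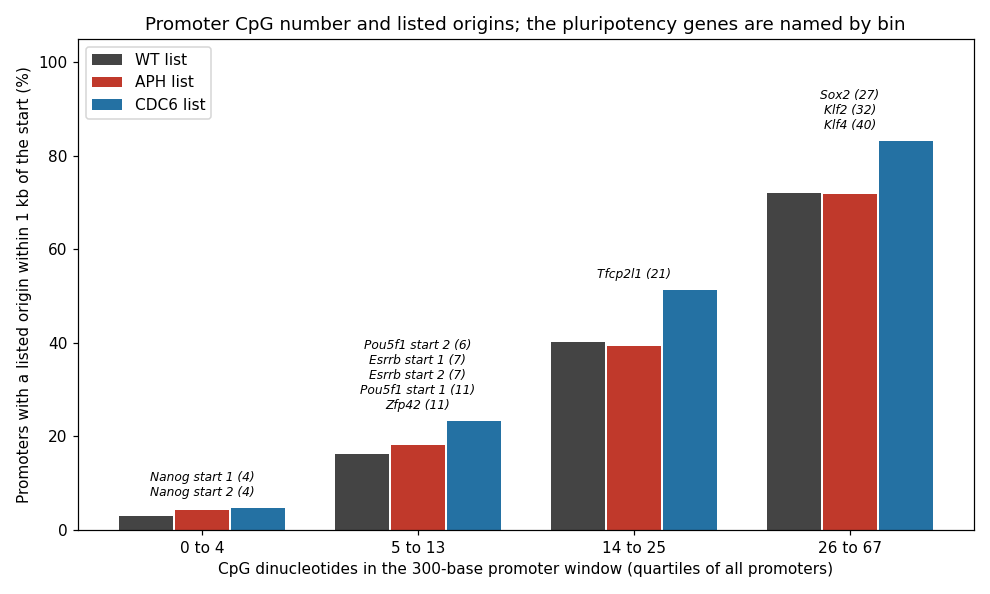
Bars give the percent of promoters of protein-coding genes with a WT, APH or CDC6 origin within 1 kb of the start, in 4 classes of promoters by the number of CpG in the 300-base window (21045 promoters in all). The 11 promoters of the pluripotency genes are named above the class they fall in, with their CpG number. Nanog lies in the lowest class, where at most 4.68% had an origin, and Klf4, Klf2 and Sox2 in the highest.

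Across the promoter table, an origin lay within 1 kb of a start at 5 of the 8 genes in the WT list (32.5% of 17274 genes), at 4 in the APH list (32.8%) and at 6 in the CDC6 list (40.2%). All 3 lists had one at Klf2, Klf4, Esrrb and Tfcp2l1 (27.7% of genes), and no list at Nanog and Zfp42 (56.9%).

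The Krüppel-like factor genes encode zinc finger transcription factors, of which KLF4 is a classical reprogramming factor, and each of the 3 had a site at its start or lower-coordinate end in all 3 lists. The Klf4 site (chr4:55530354-55533568) covered the start, ran from -1.09 to 2.12 kb and also overlaps the annotated gene Gm12506. Its fold over the control was 6.22 (WT 1), 5.49 (WT 2), 9.78 (APH 1), 8.27 (APH 2), 5.97 (CDC6 1) and 7.65 (CDC6 2). It was the sole peak of the window in every library and stood at the 96.2nd to 99.7th percentile of its library. By fold both APH libraries were the highest, whereas by percentile APH 2 lay below WT 2 and CDC6 2.

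The Klf2 site (chr8:72318529-72320299) covered the start of Klf2, whose product supports the naive state together with KLF4. Its fold was 4.60 (WT 1), 2.68 (WT 2), 5.26 (APH 1), 5.00 (APH 2), 5.61 (CDC6 1) and 5.80 (CDC6 2). WT 2 was the low library, at the 72.9th percentile against the 94.0th or above in the others, and the WT list held a narrow origin of 486 bp against 1771 bp (APH) and 1725 bp (CDC6). In WT 1 the peak ran on to 7.01 kb past the start, beyond the end of the gene.

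Klf5, which has a role in both the inner cell mass and the trophoblast, had a site at its lower-coordinate end (chr14:99298149-99299826) in all 3 lists. Its fold was 8.23 (WT 1), 4.01 (WT 2), 4.14 (APH 1), 5.28 (APH 2), 6.10 (CDC6 1) and 5.65 (CDC6 2). The WT libraries thus enclosed all others. A second Klf5 site (chr14:99319884-99320576) lay between 21.2 and 21.9 kb from that end, past the far end of the gene, and was in the APH and CDC6 lists but not in WT. WT 1 and WT 2 nevertheless had a MACS peak there, at 2.61-fold and 2.15-fold, beside 2.78 (APH 1), 2.73 (APH 2), 2.49 (CDC6 1) and 2.62 (CDC6 2). The fold of WT 1 lay inside the range of the treated libraries.

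Pou5f1, the gene of the POU-domain factor OCT4, had 2 sites. The site at the start (chr17:35505577-35506475) ran from -0.455 to 0.443 kb and was in the WT and CDC6 lists but not in the APH list; it also overlaps the annotated gene Gm32362. Its fold was 3.83 and 3.34 in WT, 2.26 and 3.62 in APH and, in CDC6, 3.99 and 4.73. APH 1 was low, at the 16.8th percentile of its library, whereas APH 2 stood at the 85.1st, between both WT libraries by fold and next to them by rank. In WT 1 and APH 2 the peak covered the whole gene, and in the other libraries it ended within 1 kb of the start. The pattern of WT and CDC6 without APH at a start was seen in 3.07% of all genes of the promoter table.

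The other Pou5f1 site (chr17:35516928-35517708) lay 10.9 to 11.7 kb from the start and was in all 3 lists. It overlaps Cchcr1, and starts of Cchcr1 and of Tcf19, a cell-cycle gene, lie within 1 kb of it, so that it cannot be assigned to Pou5f1. Its fold was 4.74 and 3.20 in WT, 3.59 and 4.17 in APH and, in CDC6, 2.83 and 3.28. Here WT 1 was highest and the groups overlapped except for APH above CDC6.

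Sox2 encodes an HMG-box partner of OCT4 and is a single-exon gene that lies within the long noncoding transcript Sox2ot. The WT list placed an origin upstream, from -2.21 to -1.15 kb (chr3:34647786-34648848). The CDC6 list placed 3 origins elsewhere, from -8.24 to -7.11 kb (chr3:34641752-34642888), at the start from 0.049 to 0.526 kb (chr3:34650044-34650521) and at the 3′ part of the gene from 1.06 to 1.67 kb (chr3:34651053-34651667). The APH list held none in the window.

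The MACS peaks of Sox2 were less distinct than these lists. In WT 1, WT 2 and CDC6 1, 1 peak overlapped the upstream WT site and both gene sites, at 4.41, 3.42 and 2.94-fold. In CDC6 2 the peak ran from -1.19 to 1.91 kb and met the same 3 sites, at 2.80-fold. In the APH libraries the strongest peak of the window had a fold of 2.27 in APH 1 and 2.28 in APH 2, at percentiles 16.98 and 26.8 of their libraries, against the 93.0th and 90.3rd in WT and the 72.6th and 80.3rd in CDC6. Both APH libraries were therefore below both CDC6 libraries, and those below both WT libraries. The compared peaks lay at different positions, since in APH 2 and CDC6 2 the strongest peak was the one at the distal site from -8.24 to -7.11 kb. At the upstream WT site, APH 2 and CDC6 2 stood at percentiles 26.1 and 56.1, which left the order of the groups the same. At the distal site, WT 2 and APH 1 had no peak, and WT 1, APH 2, CDC6 1 and CDC6 2 had folds of 2.95, 2.28, 2.76 and 3.32.

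Nanog encodes a homeobox factor and had no listed origin in any condition, although each library had 1 to 3 weak peaks. The strongest peak of the window had a fold of 3.08 (WT 1), 2.20 (WT 2), 2.32 (APH 1), 2.24 (APH 2), 2.12 (CDC6 1) and 2.56 (CDC6 2). WT 1 reached the 75.1st percentile of its library, and the other libraries the 11.3rd to the 32.4th. The position also differed between libraries. In WT 1 the sole peak covered the start, from -2.01 to 0.616 kb, and peaks there were also called in APH 2 (2.24-fold) and CDC6 2 (2.08-fold). Near the far end of the gene, peaks with midpoints 6.20 to 6.84 kb from the start were called in WT 2, both APH libraries and both CDC6 libraries, but not in WT 1. By its sample label, WT 1 is the library of the other cell line, and the part of the line in this difference was not tested.

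Zfp42, a zinc finger gene on chromosome 8, had no peak within 1 kb of its start in any library. Its only listed origin (chr8:43301518-43302135) lay inside the gene, from 4.87 to 5.49 kb, in the CDC6 list. CDC6 1 and CDC6 2 had peaks there at 2.14-fold and 2.64-fold, at the 11.3rd and 40.2nd percentile, and no other library had one overlapping it. The closest peak of WT 1 ran from 5.66 to 8.13 kb. A stretch upstream, with peak midpoints from -6.78 to -6.13 kb, was called in WT 2 (2.37-fold), APH 1 (2.49), APH 2 (3.09), CDC6 1 (2.83) and CDC6 2 (2.59) without being in any list. WT 1 again had no peak there, as at the far end of Nanog.

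Esrrb encodes an orphan nuclear receptor, and at 160.5 kb is the longest of the 10 genes. Its 4 sites all lay in the gene body and none at the start nearest to the 5′ end, where WT 1 alone had a peak, of 2.48-fold. The site from 61.1 to 62.2 kb (chr12:86422241-86423324), within 1 kb of the inner start, was in all 3 lists with folds of 3.004 and 2.62 in WT, 2.24 and 2.88 in APH and, in CDC6, 3.28 and 3.08. The CDC6 libraries were the highest there, by small margins.

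The site from 150.4 to 151.1 kb of Esrrb (chr12:86511513-86512255) was also in all 3 lists, at 4.00 and 3.18 in WT, 4.80 and 4.09 in APH and, in CDC6, 3.21 and 3.13, with the APH libraries highest. A site from 75.4 to 76.3 kb (chr12:86436560-86437404) was in the APH list alone, and its fold was 2.43 and 2.25 in WT, 3.38 and 2.97 in APH and, in CDC6, 2.47 and 3.01. CDC6 2 thus lay above APH 2 at this site, although the CDC6 list did not hold it. The site from 122.0 to 122.9 kb (chr12:86483081-86483969) was in the CDC6 list alone, with folds of 3.02 and 3.10 in CDC6, 2.10 in WT 1 and no peak in WT 2 or in either APH library.

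Tfcp2l1 encodes a CP2-family factor that LIF signalling maintains, and its single site (chr1:118626692-118628848) covered the start in all 3 lists. The fold was 4.22 (WT 1), 3.96 (WT 2), 3.67 (APH 1), 4.42 (APH 2), 5.64 (CDC6 1) and 6.18 (CDC6 2). The CDC6 libraries were the highest, and WT and APH overlapped. The listed origin spanned 1437 bp (WT), 2087 bp (APH) and 2106 bp (CDC6). The remainder of the 77.2 kb window had at most 2 further peaks in any library.

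Tbx3, a T-box factor gene that also acts in limb and heart development, had 2 sites. The site at its lower-coordinate end (chr5:119670026-119671399) overlaps the antisense gene Tbx3os1 as well and was in the WT and CDC6 lists but not in APH, as at Pou5f1, with folds of 3.35 and 3.13 in WT, 2.70 and 3.05 in APH and, in CDC6, 4.22 and 3.39. APH lay below both other groups, with a gap of less than 0.1 between APH 2 and WT 2. The site inside the gene from 9.63 to 10.8 kb (chr5:119680166-119681361) was in all 3 lists, at 4.14 and 3.54 in WT, 6.60 and 5.89 in APH and, in CDC6, 5.64 and 4.64. At this site the APH libraries were highest and the WT libraries lowest.

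**Figure D3:**
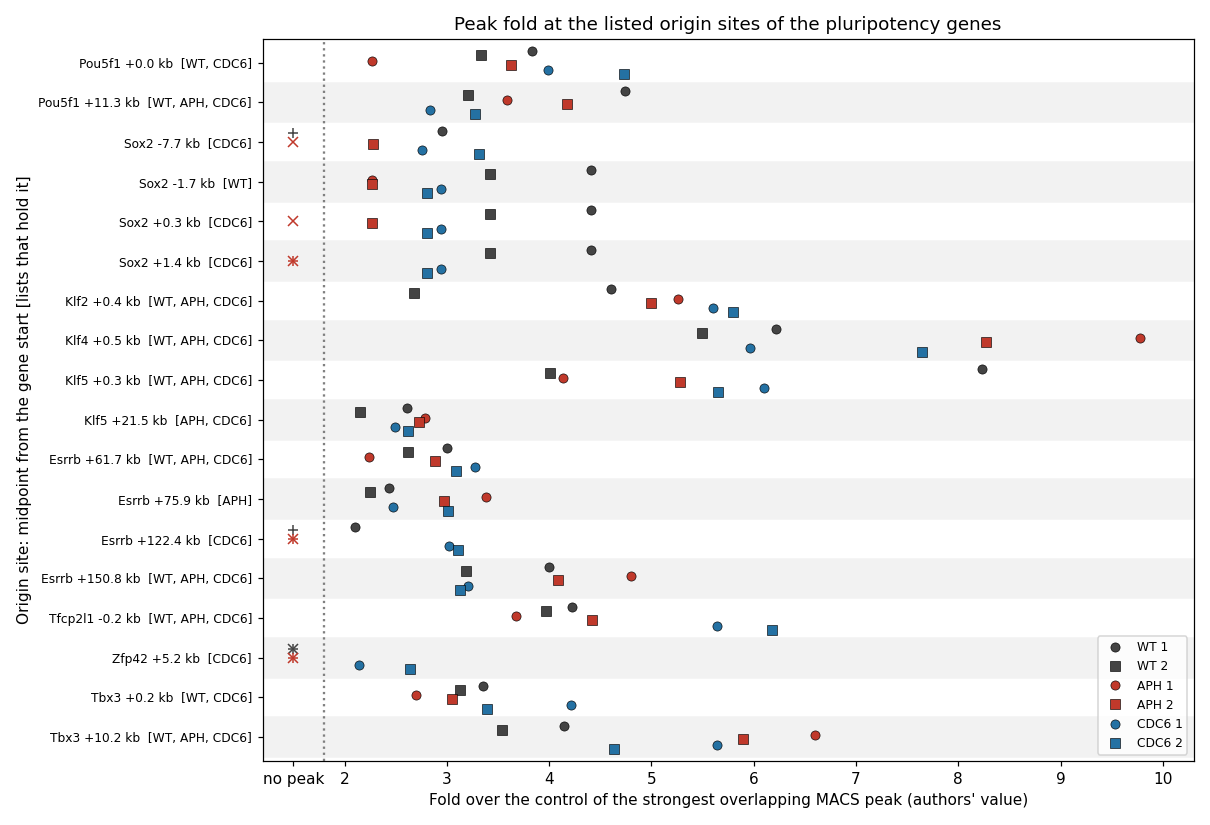
Each row is 1 of the 18 origin sites, named by gene, by the distance of its midpoint from the start (for Klf5 and Tbx3 from the lower-coordinate end) and by the lists that hold it. Points give the fold over the control of the strongest overlapping MACS peak in each library (circles replicate 1, squares replicate 2), and crosses at the left mark libraries with no peak. Folds range up to 9.78 at Klf4, and the CDC6-list sites at Zfp42 and at 122.4 kb of Esrrb have a peak in 2 and 3 of the 6 libraries.

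The strength of the strongest peak ordered the genes from Klf4 (mean percentile over the 6 libraries 98.6) over Klf5 (95.1), Tbx3 (95.1), Tfcp2l1 (93.4), Klf2 (91.9), Pou5f1 (91.0), Esrrb (86.8), Sox2 (63.3) and Zfp42 (52.4) to Nanog (31.3). Neighbours in this order overlapped in their range over libraries. In both WT and both APH libraries the strongest Pou5f1 peak was the one at the Cchcr1 site, and the peak at the Pou5f1 start itself had a mean percentile of 76.4. The median over the 10 genes was 91.4, against 86.5 for the 14734 protein-coding genes that likewise had a peak in every library. By this rank, both APH libraries were below both WT libraries at Tfcp2l1, Klf5 and Sox2 (3 of 10 genes, 23% of all genes) and above them at Tbx3 (15.3%). Both CDC6 libraries were above both WT libraries at Tfcp2l1 and Tbx3 (2 of 10, 14.8%) and below them at Esrrb and Sox2 (2 of 10, 19.5%). Both APH libraries were above both CDC6 libraries at Esrrb and Tbx3 (2 of 10, 23%) and below them at Tfcp2l1, Klf5 and Sox2 (3 of 10, 31.2%). These shares were near those of all genes. The libraries have different numbers of peaks, so that ranks alone show no change.

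**Figure D4:**
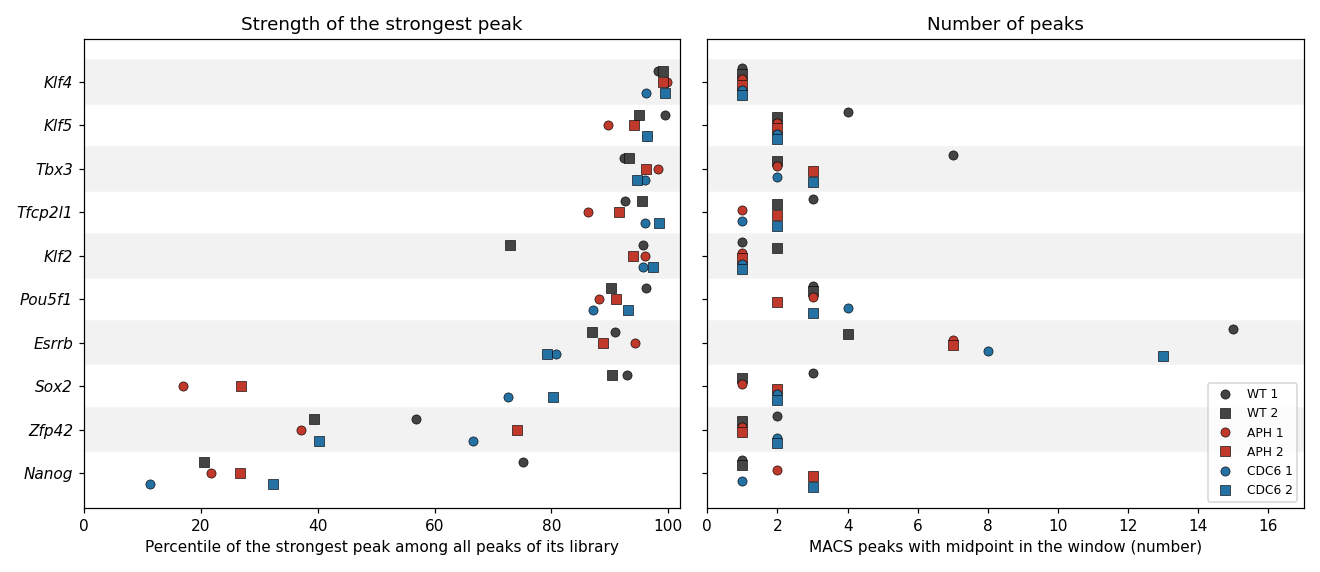
The left panel gives the percentile of the strongest MACS peak in the window of each pluripotency gene among all peaks of its library, and the right panel the number of peaks with their midpoint in the window (circles replicate 1, squares replicate 2). Klf4 is above the 96th percentile in every library, the 2 APH points of Sox2 lie below the 27th, and Esrrb spans 4 to 15 peaks.

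The number of MACS peaks in the window was compared between conditions to ask whether peaks became denser or sparser at these genes. The 10 windows together held 40 (WT 1), 19 (WT 2), 21 (APH 1), 24 (APH 2), 24 (CDC6 1) and 32 (CDC6 2) peaks. Esrrb accounted for much of this spread, with 15 and 4 peaks in WT, 7 and 7 in APH and, in CDC6, 8 and 13, and without it the totals were 25, 15, 14, 17, 16 and 19. The WT libraries enclosed all others at Esrrb and in the sum over the 10 windows, but without Esrrb APH 1 lay below WT 2. Per window, the genes had a median of 1.83 peaks, against 2 for all protein-coding genes, whose median window was longer (37.3 against 29.5 kb). Per window length, the genes had a median of 5.94 peaks per 100 kb, against 4.27 for all protein-coding genes. Pou5f1 was the densest with 12.1 and Tfcp2l1 the sparsest with 2.37.

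In the limma fit of log2(scaled number + 1) over 16949 genes with at least 1 peak per library on average, 0 genes passed an adjusted p of 0.05 (0% of genes) in APH minus WT, CDC6 minus WT or APH minus CDC6. At an unadjusted p under 0.05 there were 1411 genes (8.32%), 1328 (7.84%) and 1597 (9.42%). All 10 pluripotency genes were tested, and 0 passed the adjusted threshold in any contrast. At the unadjusted threshold, Nanog was the sole member, in APH minus WT. Nanog had 1 peak in each WT library, 2 and 3 in APH and, in CDC6, 1 and 3. The APH libraries lay above WT, and the log2 difference was 0.95 ± 0.365 (SE, 2 libraries per group; limma adjusted p = 0.569).

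In CDC6 minus WT, Nanog again had the smallest p of the members, with a log2 difference of 0.58 ± 0.365 (SE; limma adjusted p = 0.660). CDC6 1 had as many Nanog peaks as the WT libraries, and the difference was 0.14 without CDC6 2 and 1.04 without CDC6 1. In APH minus CDC6 the member with the smallest p was Zfp42, with 1 peak in each APH library, 2 in each CDC6 library, and 2 and 1 in WT. Its log2 difference was -0.55 ± 0.262 (SE; limma adjusted p = 0.530). The median log2 difference of the 10 genes was -0.09 in APH minus WT (0.00 over all genes tested), 0.15 in CDC6 minus WT (0.12) and 0.04 in APH minus CDC6 (-0.15). The contrasts share libraries, and 0 calls do not show that no gene changed. By its sample label, WT 1 came from the other cell line, so that any difference between the lines enters the spread within WT. Some genes were called in APH minus WT without WT 2, in CDC6 minus WT without WT 1, and in APH minus CDC6 without WT 1 or without WT 2. None of the 10 genes was among them. With the lines as labelled, line and treatment cannot be told apart in the contrasts with WT when WT 2 is left out.

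Other genes of the pluripotency network were counted in the same way. Over all protein-coding genes, 53.6% had a WT, 60.2% an APH and 64.5% a CDC6 origin in the window. An origin of all 3 lists was there in 46.7%, and the median window was 37.3 kb. Of 9 LIF signalling genes, all 9 had an origin in each list, among them Lifr and Il6st, the receptor subunits, Jak2, a kinase, and Pim1, a STAT3 target, whose strongest peaks stood at mean percentiles of 94.3, 98.3, 98.6 and 98.8. These genes had a median window of 62.8 kb. Of 28 chromatin regulators and partners, 26 had a WT, 28 an APH and 27 a CDC6 origin, with Med1, Mbd3, Ezh2 and Chd7 at the 99.8th, 99.5th, 99.3rd and 99.4th mean percentile. Their median window was 57.8 kb. Of 13 formative and primed genes, 10, 13 and 12 had a WT, APH and CDC6 origin, among them Dnmt3b, Dnmt3a, Pou3f1 and Zic2. The median window of the 13 was 30.9 kb.

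Of 28 other naive and general pluripotency genes, 11 had a WT origin, 18 an APH origin and 15 a CDC6 origin, and 10 had none in any list. Sall4, a zinc finger partner of OCT4, and Tet2, a DNA demethylation enzyme, had origins in all 3 lists at mean percentiles of 99.4 and 99.3, as did Zfx and Utf1 at 95.5 and 95.0. Tet1, Mybl2, Prdm14 and Dppa4 had none. Prdm14 had 3 peaks in WT 1, 1 in CDC6 2 and 0 in the other libraries, so that a gene without a listed origin could have a peak at the 87.2nd percentile in WT 1. The 23 lineage genes, which stem cells keep largely silent, had a WT origin in 19, an APH origin in 17 and a CDC6 origin in 21, among them Sox1, Gata4, Nes and T. The median window of the lineage genes was 26.5 kb.

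Within 1 kb of a start, WT, APH and CDC6 origins lay at 5, 6 and 6 of 15 other naive genes in the promoter table, at 11, 10 and 13 of 17 lineage genes, and at 8, 8 and 8 of 9 LIF signalling genes. Over all genes of the promoter table the shares were 32.5% (WT), 32.8% (APH) and 40.2% (CDC6). In the limma fit of peak number, 0 genes of these 5 lists passed the adjusted threshold in any contrast (0% of all genes tested). At an unadjusted p under 0.05 there were 0 to 4 genes per list, with 9 to 27 tested, beside 7.84% to 9.42% of all genes tested.

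By the percentile of the strongest peak over the 6 libraries, the genes nearest to Pou5f1 among 14734 genes with a peak in every library were Tcf19, whose window overlaps it and holds the same strongest peaks (difference 0), and Foxm1 and Rhno1 (mean absolute difference 0.825 points each). Nearest to Sox2 were Nek3, Vmn1r233 and Acmsd (5.08, 5.30 and 5.76 points), and to Nanog Samhd1, Dydc1 and 4930415O20Rik (6.13, 6.61 and 7.36 points). These rest on 6 values per gene. In both WT and both APH libraries the Pou5f1 value is that of the peak at the Cchcr1 site. Whether Foxm1 and Rhno1, with equal differences, hold the same strongest peaks was not checked.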

How the data were processed

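Programs named per the submitters' processing notes are BWA 0.7.10, bedtools 2.23.0, MACS2 2.0.10, Picard 1.107, SAMtools 0.1.19 and FastQC; builds named there are mm9, mm10 and GRCm38. The sources used here do not say which step each one made. Each peak of the deposited MACS lists comes with a score, its fold (a ratio over the control), a −log10 p-value and a −log10 q-value. The deposited condition lists and second library lists hold 2 scores of unstated meaning. No list of the Input sample was used. The labels of the second lists go against those of the MACS lists at several libraries, so they entered alternatives only.

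The genes and lists were chosen with earlier results of these data known. Origins were counted by an overlap of at least 1 bp with the gene body plus 10 kb, and MACS peaks by midpoint. Peak numbers, scaled to the mean total, entered limma (3.58.1, under R 4.3.3) on the log2(number + 1) scale (lmFit, eBayes with a trend, all 3 conditions, Benjamini-Hochberg adjustment), after a filter of 1 peak per library on average. The code was tested on simulated data. The percentile of a peak is its rank by −log10 q-value in its library, where 100 is the strongest. Members are named in full, with a limma difference for the smallest p per contrast. From each wider list, at most 4 genes with origins in all 3 lists (strongest peaks) and at most 4 with none (longest windows) are named. The 3 genes nearest to Pou5f1, Sox2 and Nanog were those of least mean absolute percentile difference. Motifs and CpG were read from RefSeq promoter sequences. Other windows, overlaps, filters, scalings, peak thresholds, lists of equal length, a replicate block and leaving out each library were tried. Exons and introns were not used here.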

Additional observations from a re-analysis of the deposited data

How the results depend on the processing

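The number of pluripotency genes with an origin in the window was 7 to 8 in the WT list, 6 to 10 in APH and 7 to 10 in CDC6 over the alternatives. All lay within 1.5 times of the main values of 8, 7 and 9, a limit that a rise among 10 genes could not pass. Leaving out a library here kept the deposited list and only asked for a peak in the other library. With sites that have a MACS peak in both libraries of a condition in place of the lists, all 10 genes had an APH and a CDC6 site and 8 a WT site, and with lists of equal length the CDC6 list lost Sox2 and Zfp42. With 25 kb on each side, Nanog gained a CDC6 origin and Zfp42 an APH origin. With the gene body alone, the WT list lost Sox2 and the APH list Pou5f1. In sites shared by both second lists, Sox2 had an APH site but no WT or CDC6 site, the reverse of the main lists. In peak number, 0 genes called in each contrast became 254 for APH against WT, 215 for CDC6 against WT and 188 for APH against CDC6 without the filter, 259, 221 and 230 without scaling, and 8 in APH minus CDC6 with the gene body alone. The cause was not tested. Leaving out 1 library gave 0 to 54, 0 to 160 and 0 to 132 genes: 54 in APH minus WT without WT 2, 160 in CDC6 minus WT without WT 1, and 112 and 132 in APH minus CDC6 without WT 1 and without WT 2. A group left with 1 library was taken to have the spread of the others. No pluripotency gene was called under any of these settings. The differences named for Nanog were 0.57 to 1.19 in APH minus WT and 0.04 to 1.04 in CDC6 minus WT. That for Zfp42 was -0.69 to -0.23 in APH minus CDC6. Each kept its sign in all 14 settings that gave a value, with limma adjusted p from 0.489 to 0.987 where all 6 libraries were fitted. Nanog fell below the filter with 3 peaks, a q of 0.01 or less, and the second lists. Its strongest −log10 q was 5.24 and 1.63 in WT and 2.07 and 1.87 in APH. The second lists held 2 and 0 Nanog regions in WT and 0 in every treated library, so the APH rise was absent there. The fit with a replicate block called 0 genes in each contrast. The correlations of replicate 1 minus replicate 2 between conditions were -0.152 (WT with APH), 0.00941 (WT with CDC6) and -0.0595 (APH with CDC6). In WT this difference is also one between cell lines, so the correlations with WT cannot tell whether equal numbers share a batch. The origin lists allow no paired analysis, because each condition has 1 list.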
